A study of Caenorhabditis elegans with 6 samples.

Results

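Nuclear pore and nuclear transport genes were followed across 6 arrays of whole Caenorhabditis elegans. The genes were taken by name: every probe set whose platform gene symbol is npp, ima, imb, xpo or ran with a number, or is mel-28. This gave 42 probe sets out of the 26192 that carry a gene, each for 1 gene. The naming rule uses no value, though it was set with earlier results of these data known. All 42 gene identifiers matched RefSeq (assembly WBcel235) under the same symbol, and RefSeq holds no further gene with a symbol of this kind.

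All worms were wild-type N2 hermaphrodites, bleach-synchronised, grown on plates of E. coli OP50 for 48 h from L1 to L4, and then held for 24 h at 20 °C in 50% M9 buffer. The exposed group (3 arrays) had 500 µg/mL BSA-SPION, superparamagnetic iron oxide nanoparticles under a single layer of bovine serum albumin, in that buffer. The control group (3 arrays) had the buffer alone. No group had albumin alone or bare particles, so particle and albumin cannot be told apart, and the labels do not say whether the replicates were separate cultures. Every p-value below therefore reflects only the variation among these 6 samples, part or all of which may be technical.

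The nuclear pore is a channel through the nuclear envelope built from nucleoporins. Its outer and inner rings form the scaffold, membrane proteins anchor it, filaments reach into the cytoplasm, a basket reaches into the nucleus, and nucleoporins rich in phenylalanine-glycine repeats fill the channel. Importins and exportins carry cargo through it, and the GTPase Ran, loaded with GTP inside the nucleus and hydrolysing it outside, gives the transport its direction. In the worm, pores are rebuilt at each division of the early embryo from maternal stores, and P granules sit on the pores of germ cell nuclei.

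The label gives the stage L4, which by the protocol was the stage before the 24 h in buffer. Genes of the hermaphrodite germline and of adults were measured in both groups: the yolk protein gene vit-2 lay at 12.16 to 12.43 in exposed and 12.04 to 12.54 in control arrays, the yolk receptor gene rme-2 at 7.58 to 7.96 in exposed and 6.01 to 6.98 in control arrays, and the adult collagen gene col-19 at 7.64 to 7.91 in exposed and 6.76 to 8.13 in control arrays (log2 levels). The oocyte marker oma-1 lay at 7.63 to 8.54 in exposed and 6.89 to 7.63 in control arrays. The sperm marker spe-9 lay at 2.54 to 3.44 in exposed and 2.78 to 2.83 in control arrays, below every array median (3.70 to 3.98). Neither spe-9 nor col-19 stands for its list. Their log2 differences (exposed minus control) were 0.13 and 0.35, while the sperm list had a median of 0.59 and the hypodermis list one of -0.20. Exposed 3 and control 3 stood apart from the other 4 arrays along the second principal component of all tested probe sets, which held 23.4% of the variance. Control 3 carries the number 2 in another label field, and its title was followed. The counts of the main gene lists are therefore also given without both arrays numbered 3.

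Nearly the whole set lay higher in exposed worms, by small amounts, and 1 gene passed the test. Of 42 members, 41 had a positive log2 difference (exposed minus control), against 55.3% of all probe sets tested. The median log2 difference of the members was 0.62, a ratio of 1.54, beside 0.05 for all probe sets. Only npp-11, which encodes the channel nucleoporin NUP62, rose at an adjusted p under 0.05 (limma, Benjamini-Hochberg over all 26192 probe sets), where 1.06% of all probe sets were called higher and 2.6% lower. Over all probe sets, 278 of 959 calls were higher as deposited and 598 of 995 once array medians were made equal. No member was called lower by limma. Below, a gene is called nominally higher or lower where its limma p, before adjustment, was under 0.05; 0 members were nominally lower, where 12.4% of all probe sets were.

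Of the 42 members, 23 were nominally higher in exposed arrays, against 10.1% of all probe sets. The 3 exposed arrays lay wholly above the 3 controls for 21 members, against 14.6% of all probe sets, and wholly below them for 0, against 13.5%. Without both arrays numbered 3, 31 members were nominally higher (13.7% of all probe sets), 5 passed the adjusted threshold (3.16%) and 41 had separate groups (34.8%). The member outside this last count was ima-1. Without single arrays the number nominally higher dropped to 10 without exposed 1 (7.11% of all probe sets), 10 without exposed 2 (7.95%), 14 without control 3 (10.4%) and 15 without control 2 (7.21%). In whole worms, more cells of a type and more RNA per cell cannot be told apart.

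The arrays numbered 3 were the low ones of their groups. Exposed 3 was the lowest exposed array for 39 of 42 members (38.1% of all probe sets), and control 3 the lowest control for 39 (37.8%). Exposed 3 lay a median of -0.53 from the mean of exposed 1 and 2, and control 3 a median of -0.61 from the mean of controls 1 and 2, beside medians of -0.01 and 0.02 over all probe sets (log2 differences). The mean log2 level over the members was 8.10, 8.10 and 7.55 in exposed 1, 2 and 3, against 7.54, 7.48 and 6.89 in controls 1, 2 and 3. Exposed 3 and control 1 thus held nearly the same mean. Exposed 1 and 2 were both above all 3 controls for 41 members, which 24% of all probe sets were. In 20 of the 21 members with overlapping groups, exposed 3 was the only exposed array not above all controls.

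**Figure D1:**
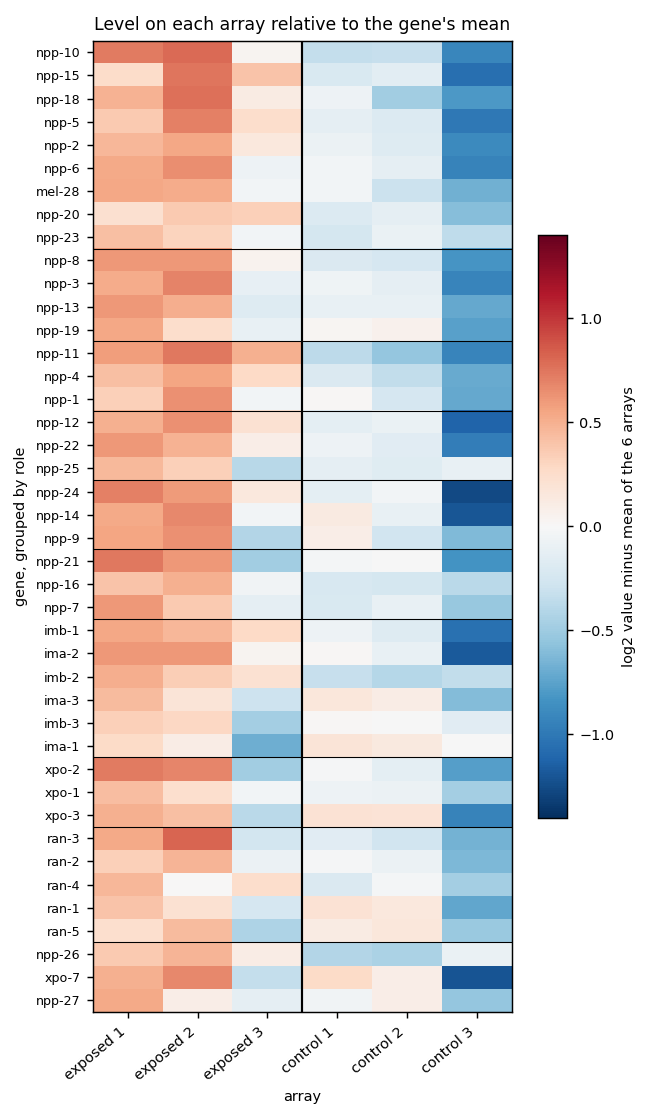
Log2 level of each member on each array minus that gene's mean over the 6 arrays, as colour (scale in log2 units), with exposed arrays to the left of the line and control arrays to its right and genes grouped by role (rows, in order: outer ring, inner ring, central channel, membrane ring, cytoplasmic side, basket, importins, exportins, Ran cycle, other members). Exposed 1 and 2 are red in nearly every row, control 3 is the darkest blue in most rows, and exposed 3 resembles controls 1 and 2 in many rows.

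The central channel held the called gene. The gene npp-11 had log2 levels of 8.25, 8.40 and 8.16 in exposed arrays, against 7.29, 7.12 and 6.74 in controls. The groups were separate, and the lowest exposed array lay well above the highest control. Its log2 difference was 1.22 ± 0.21 (SE), a 2.33-fold rise (95% interval 0.74 to 1.70 in log2, adjusted p = 0.028). The call held without both arrays numbered 3 (log2 difference 1.12, limma adjusted p = 0.028) and without control 3 alone (adjusted p = 0.025). It was lost without any of exposed 1, exposed 2, exposed 3, control 1 or control 2 (adjusted p 0.061 to 0.10), with log2 differences of 1.16 to 1.34.

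NPP-11 works in a complex with NPP-4 and NPP-1, the worm NUP58 and NUP54. For npp-4 the log2 levels were 7.65, 7.79 and 7.51 in exposed arrays, against 7.03, 6.89 and 6.53 in controls, again without overlap. Its difference of 0.83 ± 0.20 (SE, log2) did not pass (adjusted p = 0.069). For npp-1 exposed 3 (6.58) lay just below control 1 (6.63), and the log2 difference was 0.62 ± 0.26 (SE, adjusted p = 0.22). All 3 channel genes were nominally higher (10.1% of all probe sets), and the test of a difference among them was not run.

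**Figure D2:**
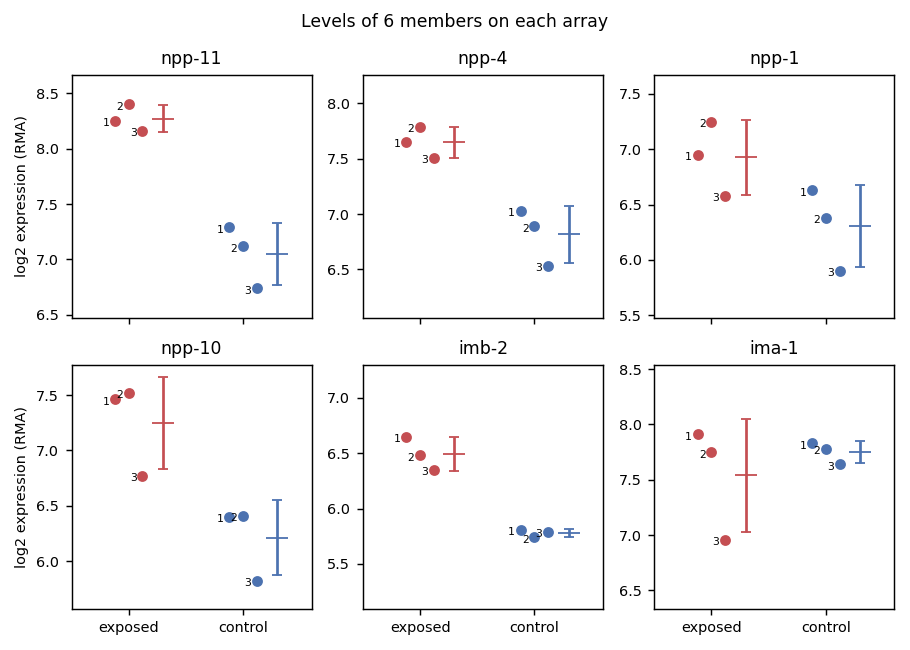
Log2 expression (RMA) of 6 members on each array, exposed worms (red) left of controls (blue), with the replicate number beside each point and the mean ± SD (n = 3) as a bar to the right, on axes of equal span. The groups are separate for npp-11, npp-4, npp-10 and imb-2, they overlap for npp-1, and for ima-1 the low array is exposed 3 at 6.96.

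All 9 outer ring genes were nominally higher (10.1% of all probe sets), and 8 of them had separate groups (14.6%). None passed the adjusted threshold in limma. Without both arrays numbered 3, all 9 were nominally higher (13.7% of all probe sets), 9 had separate groups (34.8%) and 1 passed (3.16%). This ring, the Y complex, is the scaffold on both faces of the pore, and MEL-28 (ELYS) starts its assembly on chromatin after division. The gene npp-10, whose product is cut into NUP98 and NUP96, had log2 levels of 7.46, 7.52 and 6.77 in exposed arrays, against 6.40, 6.41 and 5.82 in controls. Even the low exposed array lay above all controls. The log2 difference was 1.04 ± 0.28 (SE), a ratio of 2.06 with an adjusted p of 0.086, and it passed without both arrays numbered 3.

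The Seh1 gene npp-18 was at 7.55, 7.84 and 7.18 in exposed arrays, against 7.0, 6.58 and 6.26 in controls (log2 levels). Its groups were separate by a small gap, with an adjusted p of 0.10. The NUP133 gene npp-15 averaged 7.98 ± 0.25 in exposed worms and 7.04 ± 0.51 in controls (log2 level, SD, n = 3 each; adjusted p = 0.11). The NUP107 gene npp-5 averaged 8.29 ± 0.24 in exposed worms and 7.41 ± 0.49 in controls, and the NUP85 gene npp-2 averaged 8.26 ± 0.21 in exposed worms and 7.49 ± 0.44 in controls (log2 levels). In all 3 of these control 3 was the outlying low value and set most of the control spread.

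The NUP160 gene npp-6 was the outer ring gene whose groups overlapped, with exposed 3 at 7.95 and control 1 at 7.98 (log2 levels). For mel-28 the levels averaged 7.19 ± 0.33 in exposed worms and 6.51 ± 0.31 in controls (log2, SD, n = 3 each; adjusted p = 0.17). The Sec13 gene npp-20, whose product also coats vesicles leaving the endoplasmic reticulum, had exposed arrays within a narrow range, 7.91, 8.05 and 8.02, against 7.50, 7.56 and 7.09 in controls. It was the member with the least drop in exposed 3, which lay 0.05 above the mean of exposed 1 and 2 on the log2 scale. The NUP43 gene npp-23 had the smallest log2 difference of the ring, 0.47 ± 0.20 (SE, adjusted p = 0.22).

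The 4 inner ring genes had log2 differences of 0.46 to 0.84, and 2 were nominally higher (10.1% of all probe sets). The inner ring links the outer rings to the membrane and to the channel. The NUP155 gene npp-8 was at 7.52, 7.51 and 6.96 in exposed arrays, against 6.71, 6.67 and 6.08 in controls (log2 levels, adjusted p = 0.11). The NUP205 gene npp-3 was at 7.37, 7.55 and 6.74 in exposed arrays, against 6.79, 6.73 and 5.93 in controls. Both genes lay lowest in the array numbered 3 of each group. The groups of npp-8 were separate, and those of npp-3 overlapped by a small margin. The NUP93 gene npp-13 and the NUP53 gene npp-19 overlapped as well, with log2 differences of 0.62 ± 0.28 and 0.46 ± 0.29 (SE).

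Among the membrane nucleoporins, npp-12 (gp210) was at 8.72, 8.86 and 8.44 in exposed arrays, against 8.09, 8.13 and 7.10 in controls (log2 levels, adjusted p = 0.15). The NDC1 gene npp-22 was at 8.88, 8.76 and 8.36 in exposed arrays, against 8.20, 8.11 and 7.30 in controls (adjusted p = 0.16). Both kept their groups apart, and control 3 lay 1.01 and 0.85 below the mean of the other controls on the log2 scale. The TMEM33 gene npp-25 did not follow them: its controls were within 6.32 to 6.39, and exposed 3, at 6.10, lay below every control (log2 difference 0.26 ± 0.25, SE).

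On the cytoplasmic side, the NUP88 gene npp-24 was at 6.81, 6.70 and 6.25 in exposed arrays, against 5.97, 6.07 and 4.84 in controls (log2 levels). The log2 difference of 0.96 ± 0.35 (SE) had an adjusted p of 0.17. Control 3 lay 1.18 below the mean of the other controls, and without it the log2 difference was 0.57. Its partner npp-14 (NUP214) was at 8.29, 8.44 and 7.73 in exposed arrays, against 7.89, 7.66 and 6.57 in controls, with exposed 3 below control 1. The gene npp-9, which encodes the Ran-binding NUP358, also overlapped, at 8.53 ± 0.58 in exposed worms and 8.0 ± 0.35 in controls (log2 level, SD, n = 3 each). The nucleoporin gene rae-1, the worm's former npp-17, falls outside the naming rule and was looked up after the results were seen. Its log2 levels were 9.24, 9.08 and 8.88 in exposed arrays, against 8.67, 8.54 and 7.63 in controls (adjusted p = 0.18).

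The 3 basket genes had nearly equal log2 differences, 0.56 to 0.57, on unequal spreads. The NUP50 gene npp-16 was at 7.34, 7.44 and 6.90 in exposed arrays, against 6.72, 6.70 and 6.57 in controls, without overlap (log2 levels, adjusted p = 0.16). The NUP153 gene npp-7 was at 8.72, 8.48 and 7.99 in exposed arrays, against 7.90, 8.01 and 7.58 in controls, where exposed 3 fell just short of control 2. The widest spread was that of npp-21, which encodes TPR, the filament protein of the basket: exposed 3 stood at 6.33 against 7.55 and 7.42 in the other exposed arrays (log2 difference 0.57 ± 0.38, SE, adjusted p = 0.42).

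The transport factor genes (importins, exportins and the Ran cycle) had a smaller median difference than the nucleoporin genes, and that contrast was not tested. Over the 27 nucleoporin genes the median log2 difference was 0.74, with 19 nominally higher and 16 with separate groups. Over the 15 transport factor genes the median was 0.47, with 4 nominally higher and 5 separate. Of all probe sets, 10.1% were nominally higher and 14.6% had separate groups with exposed above. Without both arrays numbered 3, 25 nucleoporin genes and 6 transport factor genes were nominally higher (13.7% of all probe sets). In that fit 27 and 14 were separate (34.8%), and the medians were 0.68 and 0.41, beside 0.06 over all probe sets. The only member with a negative difference was a transport factor.

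Importin alpha binds the cargo's signal and importin beta carries the complex through the pore, and the differences among the worm's 3 importin alpha genes were not tested. The gene ima-2, needed for nuclear import in the germline and early embryo, was at 9.35, 9.35 and 8.78 in exposed arrays, against 8.76, 8.64 and 7.57 in controls (log2 levels, adjusted p = 0.21). The groups were separate by 0.02, the gap between exposed 3 and control 1, which was smaller than the spread within either group. For ima-3, which acts in meiosis and in somatic tissue, the log2 difference was 0.22 ± 0.29 (SE, adjusted p = 0.69). For ima-1, a germline importin alpha, the levels were 7.91, 7.75 and 6.96 in exposed arrays, against 7.83, 7.78 and 7.64 in controls, a log2 difference of -0.21 ± 0.27 (SE, 95% interval -0.84 to 0.42, adjusted p = 0.69). Exposed 3 alone was low, and without it the log2 difference was 0.08.

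Among the importin beta genes, imb-2, the transportin gene, had the smallest p of all carriers. Its log2 levels were 6.65, 6.48 and 6.35 in exposed arrays, against 5.81, 5.74 and 5.79 in controls. The controls agreed within 0.03 (SD), control 3 was not low, and the difference of 0.71 ± 0.17 (SE, log2) had an adjusted p of 0.067. Importin beta itself, imb-1, was at 7.05, 6.97 and 6.79 in exposed arrays, against 6.44, 6.33 and 5.46 in controls (log2 levels, adjusted p = 0.14). The importin 5 gene imb-3 showed no shift larger than its spread, at 8.92 ± 0.45 in exposed worms and 8.82 ± 0.09 in controls (log2 level, SD, n = 3 each), with a 95% interval of -0.49 to 0.69 for the log2 difference.

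The exportins take cargo out of the nucleus. They are few, and none was nominally higher (10.1% of all probe sets). Without both arrays numbered 3, 1 of xpo-1, xpo-2 and xpo-3 was nominally higher (13.7%) and all 3 had separate groups (34.8%). The CRM1 gene xpo-1, the main protein exporter, was at 9.09, 8.89 and 8.62 in exposed arrays, against 8.59, 8.58 and 8.18 in controls, separate by a narrow gap (log2 levels, adjusted p = 0.30). The CAS gene xpo-2, which returns importin alpha to the cytoplasm, was at 7.47, 7.43 and 6.26 in exposed arrays, against 6.73, 6.61 and 5.97 in controls. It had the deepest drop of any member in exposed 3, which lay -1.19 from the mean of exposed 1 and 2 on the log2 scale. The tRNA exporter gene xpo-3 had a log2 difference of 0.36 ± 0.38 (SE), and xpo-7, an exportin 7 gene by its name, one of 0.56 ± 0.44 (SE) with the lowest control 3 of the set, -1.38 from the mean of controls 1 and 2.

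In the Ran cycle, the gene of the nuclear exchange factor RCC1, ran-3, was at 7.98, 8.27 and 7.20 in exposed arrays, against 7.30, 7.18 and 6.79 in controls (log2 levels, unadjusted p = 0.046, adjusted p = 0.21). Exposed 3 lay below control 1. The NTF2 gene ran-4, whose product brings Ran back into the nucleus, was at 9.86, 9.40 and 9.64 in exposed arrays, against 9.20, 9.37 and 8.92 in controls, separate by 0.03 (adjusted p = 0.23). The Ran gene ran-1 averaged 11.16 ± 0.33 in exposed worms and 10.91 ± 0.52 in controls (log2 level, SD, n = 3 each), and the RanGAP gene ran-2 averaged 7.17 ± 0.28 in exposed worms and 6.69 ± 0.33 in controls. The log2 difference of ran-5 was 0.16 ± 0.30 (SE). Of these 5 genes, ran-3 alone was nominally higher (10.1% of all probe sets).

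The remaining nucleoporin symbols were npp-26 and npp-27. The gene npp-26 was at 4.03, 4.14 and 3.77 in exposed arrays, against 3.26, 3.23 and 3.58 in controls (log2 levels, adjusted p = 0.12), near the array medians of 3.70 to 3.89 and 3.97 to 3.98, where RMA compresses differences. Here control 3 was the highest control, 0.33 above the mean of the other controls on the log2 scale. For npp-27 the levels were 8.74, 8.31 and 8.09 in exposed arrays, against 8.16, 8.30 and 7.67 in controls, which overlap (adjusted p = 0.49).

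**Figure D3:**
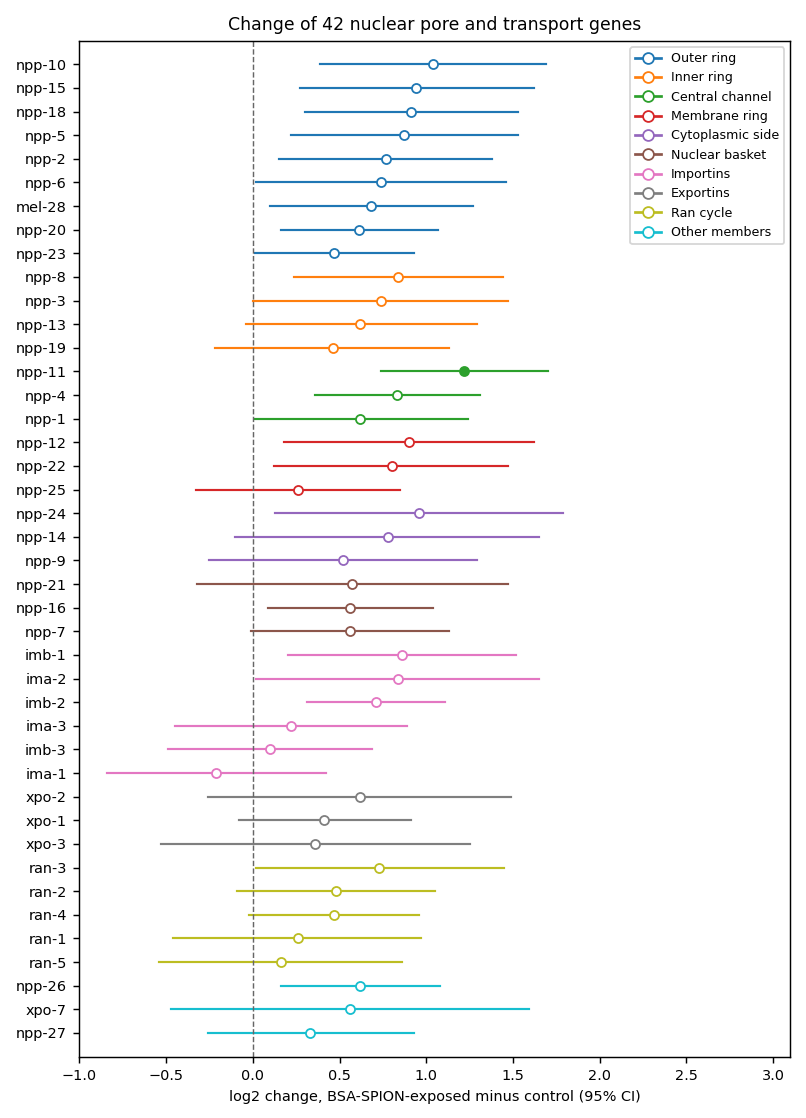
Log2 difference of each member (exposed minus control, points) with its 95% interval from limma (lines), coloured by role, with the dashed line at no difference. The filled point is npp-11, the member with an adjusted p under 0.05, at 1.22; open points did not pass, and 41 of 42 points lie right of the dashed line.

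Some members lie side by side in the genome. In the RefSeq gene order (WBcel235), imb-3 is next to xpo-2 and npp-15 is next to ran-2 among protein-coding genes, and 2 such genes lie between npp-27 and xpo-3. The log2 differences were 0.10 and 0.62 for imb-3 and xpo-2, and 0.94 and 0.48 for npp-15 and ran-2. They were 0.33 and 0.36 for npp-27 and xpo-3.

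Other genes of the nuclear envelope and of nuclear traffic gave smaller medians, with 0 past the adjusted threshold of limma in any of 3 lists. Without both arrays numbered 3, the nuclear envelope list had 3 called higher, 7 nominally higher and 1 nominally lower. The mRNA export list had 5 nominally higher and the SUMO list 2, these 2 lists with 0 called. In that fit 3.16% of all probe sets were called higher, 13.7% were nominally higher, and 3901 of 26192 were nominally lower. With all arrays kept, 5 of 14 nuclear envelope genes measured (15 listed) were nominally higher and 0 nominally lower. Of all probe sets, 10.1% were nominally higher and 12.4% nominally lower with all arrays, and 1.06% were called higher and 2.6% lower. The median log2 difference of the nuclear envelope list was 0.47. The SUN-domain gene unc-84, needed for nuclear migration, was at 7.83, 7.75 and 7.68 in exposed arrays, against 6.96, 6.73 and 7.13 in controls (log2 levels, adjusted p = 0.058). The nuclear membrane gene nemp-1 was at 8.75, 8.72 and 8.36 in exposed arrays, against 7.89, 7.90 and 7.31 in controls (adjusted p = 0.078). Both kept their groups apart, as did emr-1, the emerin gene. In contrast, the exposed arrays lay below all controls for anc-1 and unc-83, which tie somatic nuclei to the cytoskeleton, with log2 differences of -0.37 ± 0.17 and -0.40 ± 0.19 (SE, adjusted p = 0.25 and 0.26).

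Of 15 mRNA export genes, 5 were nominally higher and 0 nominally lower, against 10.1% and 12.4% of all probe sets. The median log2 difference was 0.42. The members with the smallest p were thoc-1, of the THO complex, and ddx-19, the helicase that releases mRNA at the pore's outer face, with log2 differences of 0.70 ± 0.26 and 0.55 ± 0.22 (SE, adjusted p = 0.17 and 0.19). The mRNA receptor gene nxf-1 had a difference of -0.44 ± 0.22 (SE, log2, adjusted p = 0.29). Of 7 SUMO pathway genes measured (9 listed), 2 were nominally higher and 0 nominally lower, with a median of 0.30. These were aos-1, a subunit of the SUMO-activating enzyme, and the SUMO protease gene ulp-2, with log2 differences of 0.65 ± 0.20 and 0.76 ± 0.25 (SE, adjusted p = 0.11 and 0.13).

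Germline and oocyte genes had a pattern over the arrays close to that of the pore genes. All 30 germline and oocyte markers had a positive log2 difference, 17 were nominally higher and 0 nominally lower. The median was 0.76, with 0 past limma's adjusted threshold. Over all probe sets, 55.3% had a positive difference, 10.1% were nominally higher and 12.4% nominally lower. Without both arrays numbered 3, 21 of these markers were nominally higher (13.7% of all probe sets) and 7 passed (3.16%), with a median of 0.72. Their mean log2 level was 8.42, 8.46 and 7.80 in exposed 1, 2 and 3, against 7.83, 7.69 and 6.98 in controls 1, 2 and 3. The summed level of the 30, on the linear scale, ranged over 10629 to 17076 in exposed and 7675 to 12161 in control arrays. No marker was at 0, the lowest single log2 level being 4.13.

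The mean of the pore and transport genes minus that of the germline markers was -0.33, -0.36 and -0.25 in exposed arrays, against -0.30, -0.21 and -0.08 in controls (log2). On this relative scale no exposed array stood above all controls. Exposed 1 and 2 lay below all 3 controls, and exposed 3 lay between control 1 and control 2. The part of germline tissue in the pore gene differences was not tested.

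Markers of other tissues took differing courses, and the sperm and embryo medians lay close to the 0.62 of the pore and transport genes. For the counts below, 10.1% of all probe sets were nominally higher and 12.4% nominally lower. Of all probe sets, 1.06% were called higher and 2.6% lower. Sperm markers had a median log2 difference of 0.59 (16 measured of 21, 7 nominally higher and 0 nominally lower, 3 past limma's adjusted threshold) and embryo markers one of 0.53 (20 of 20, 8 nominally higher and 1 nominally lower). The sperm means did not have the low arrays numbered 3: they were 4.14, 3.78 and 4.14 in exposed arrays, against 3.15, 3.33 and 3.31 in controls (log2). The embryo means were 5.25, 5.17 and 5.16 in exposed arrays, against 4.54, 4.55 and 5.24 in controls, with control 3 level with the exposed arrays. Neuron and muscle markers had medians of -0.98 (22 measured of 24, 16 nominally lower, 0 nominally higher and 7 called lower by limma) and -0.75 (17 of 18, 10 nominally lower, 0 nominally higher and 3 called lower). For intestine markers the median was 0.29 (18 of 20, 4 nominally higher and 2 nominally lower, 1 called in each direction). For hypodermis markers it was -0.20 (17 of 18, 0 nominally higher, 5 nominally lower and 2 called lower), and 0.22 without both arrays numbered 3. In that fit the medians were 0.77 for embryo, 0.53 for sperm, 0.16 for intestine, -1.29 for neuron and -0.74 for muscle markers. There 12 embryo markers were nominally higher (13.7% of all probe sets), 1 was nominally lower (3901 of 26192) and 5 were called higher (3.16%). On the linear scale the summed neuron markers were at 2336 to 2606 in exposed and 3845 to 5399 in control arrays, muscle at 8263 to 10023 in exposed and 10412 to 12666 in control arrays, and hypodermis at 1689 to 2942 in exposed and 3923 to 4570 in control arrays. Summed sperm markers were at 551 to 1889 in exposed and 210 to 296 in control arrays, and embryo markers at 1708 to 1795 in exposed and 1262 to 1660 in control arrays. The germline sums overlapped, as did those of the intestine, at 16149 to 19425 in exposed and 14141 to 21176 in control arrays. Mean log2 levels gave another picture for intestine, hypodermis and embryo. Intestine means were separate, at 8.05 to 8.27 in exposed and 7.85 to 7.90 in control arrays. Hypodermis means overlapped, at 5.19 to 5.84 in exposed and 5.82 to 6.43 in control arrays. Embryo means overlapped as well, at 5.16 to 5.25 in exposed and 4.54 to 5.24 in control arrays.

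**Figure D4:**
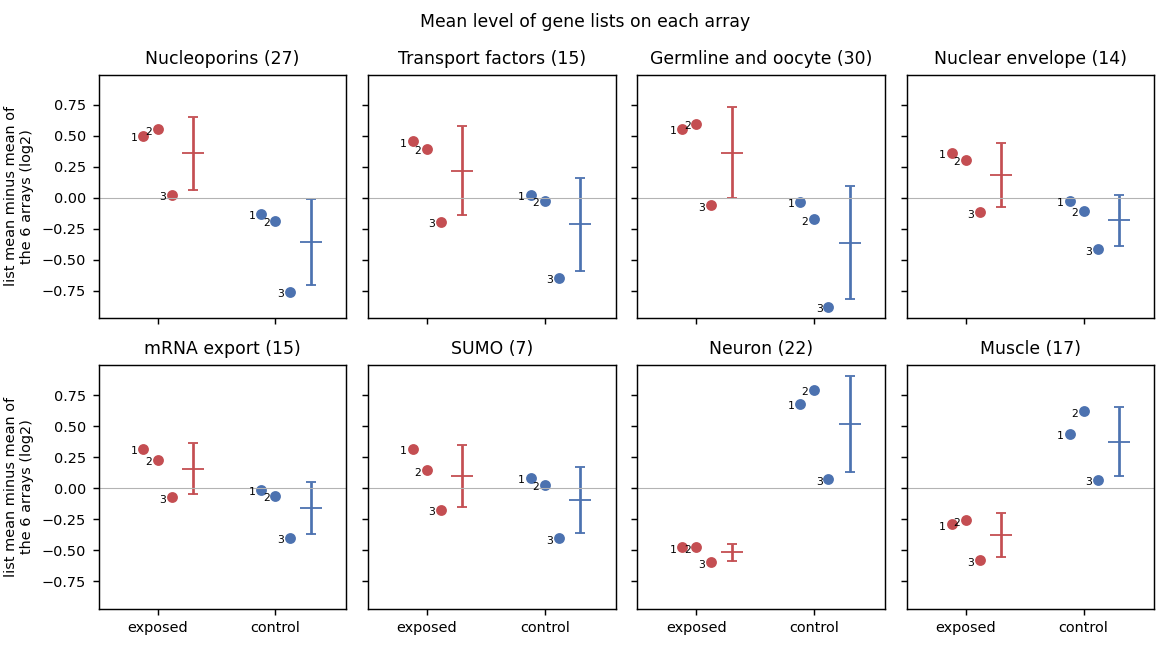
Mean log2 level of 8 gene lists on each array minus the list's mean over the 6 arrays, exposed worms (red) left of controls (blue), with replicate numbers and mean ± SD (n = 3 arrays), and the number of genes measured in brackets. For nucleoporins and for germline and oocyte genes exposed 1 and 2 are highest, control 3 is lowest and exposed 3 is nearest to control 1, while neuron and muscle genes lie lower in all exposed arrays.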

How the data were processed

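The authors deposited log2 expression values. Per the submitters' processing notes, these came from RMA and the software was Affymetrix Expression Console. RMA corrects background, quantile-normalizes arrays and summarises probe sets. The sources used here name neither versions nor a genome build, and coordinates are left out. Per the labels' protocols, 200 ng of total RNA per sample was amplified to biotin-labelled cDNA. Neither scanner files nor detection calls were used here.

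Of 29317 probe sets, the 26192 with a gene in the platform table were fitted with limma 3.58.1 (lmFit and eBayes, no trend, in R 4.3.3). The two-sided contrast was exposed minus control, and p-values were adjusted by Benjamini-Hochberg with a threshold of 0.05. Fold changes, SE, intervals and p-values are limma's. With 3 arrays against 3, an exact permutation test cannot give a two-sided p under 0.1, so none was used. The number of arrays limits precision. The procedure was tested on simulated data. The simulated noise was independent between probe sets, so it held no shift shared by many genes of an array. Each result was recomputed under 16 alternatives of scaling, variance model, filter, pairing and arrays left out.

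Members and lists were chosen with earlier results of these data known. Every member may be named. Values on all arrays are given for called members, for the members with the smallest p in each direction and for the leading 2 of each role, and, after the values were seen, for a few further members. Of other pathway lists, called genes and the 2 with the smallest p are named. The genes emr-1, anc-1, unc-83 and nxf-1 were added after their values were seen. The stage markers vit-2, rme-2, col-19, oma-1 and spe-9 were likewise picked from the lists.

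Replicate numbers were checked for pairing: deviations from group means correlated at r = 0.14, 0.08 and 0.25 for numbers 1, 2 and 3. Between differing numbers r ran from -0.23 to 0.19. The highest value was that of the arrays numbered 3, and each of them correlated negatively with the other numbers (-0.23 to -0.10). Deviations cancel out within a group, so these negative values are not separate evidence. Exposed 3 and control 3 lay on the same side of the second principal component (-36.3 and -63.2). Whether they shared a shift was not tested. The main fit treated the arrays as unpaired, and an alternative fitted the replicate number as a block. Any 2 arrays had at most 36 identical values.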

Additional observations from a re-analysis of the deposited data

How the results depend on the processing

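The median log2 difference of the 42 members was positive under all 16 alternatives, from 0.45 (without control 3) to 0.87 (without exposed 3). Equal array medians moved the median of all probe sets from 0.05 to 0.26 and that of the members to 0.83. Of members called higher there were 3 with equal array medians, 8 with array weights, 5 without both arrays numbered 3 (3.16% of all probe sets), and 0 to 1 without single arrays (0.0229% to 2.52%). With array weights 5.08% of all probe sets were called higher, and with equal medians 2.28%. The replicate block gave 2 calls, npp-10 and npp-11 (1.24% of all probe sets called higher), and 31 members higher at an unadjusted p under 0.05 (13.1% of all probe sets). The labels give the arrays only a shared number. Exposed 1 correlated best with control 2 (r = 0.19), and exposed 3 with control 3 (r = 0.25). The gene npp-11 passed under each of the 10 alternatives other than leaving out a single array, with adjusted p of 0.0084 to 0.042.

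Without single arrays, 10 to 32 members were higher at an unadjusted p under 0.05 (7.11% to 10.4% of all probe sets), with 10 each without exposed 1 or exposed 2, 14 without control 3 and 15 without control 2, and 21 to 41 had separate groups (17.5% to 24.7% of all probe sets). Without both arrays numbered 3, 41 did (34.8%). No alternative called a member lower, and 0 were lower at an unadjusted p under 0.05 in any.

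Sign turned for 6 members, whose log2 differences without single arrays ranged up to 0.36 (imb-3), 0.42 (ran-5), 0.44 (ran-1), 0.63 (xpo-3) and 0.43 (ima-3), and for ima-1 down to -0.40. The turns were imb-3 without exposed 1 (-0.04) or exposed 2 (-0.02), ran-5 without exposed 2 (-0.02) or control 3 (-0.06), ran-1, xpo-3 and ima-3 without control 3 (-0.04, -0.02 and -0.02), and ima-1 without exposed 3 (0.08) or without both arrays numbered 3 (0.02). Over the single members and all alternatives, 644 values kept their direction and their side of the threshold, 14 gained a call, 5 lost it (all npp-11) and 9 turned sign. The causes of these shifts were not tested.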
